A study of Drosophila melanogaster with 11 samples.

Results

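The nuclear genes for the respiratory chain were followed through embryogenesis of Drosophila melanogaster. They were taken by FlyBase symbol, as every gene whose symbol begins with ND-, UQCR-, COX and a digit, ATPsyn or Sdh, which gave 88 of the 17753 genes in the tables. Of these, 63 are subunits of the 5 complexes (34 of complex I, 4 of complex II, 6 of complex III, 8 of complex IV and 11 of ATP synthase), 1 is an assembly factor (Sdhaf3) and 24 are duplicates, each of a partner gene, with a symbol that ends in L, or in L and a digit. Most carry the partner's name before the L. The partners of COX6AL and COX6AL2 (levy), COX6CL (cype) and ATPsynepsilonL (sun) have other symbols and are not among the 88. ND-MNLL also ends in L, but its letters come from its protein and it was counted as a subunit. The study profiled polyA-selected mRNA of whole wild-type (Oregon-R) embryos in 11 libraries, timed in hours after egg deposition: 3 of the 2–4 h window, 2 of the 14–14.5 h window, 4 of the 14–17 h window and 2 of the 17–17.5 h window. Embryos of all windows were dechorionated in bleach and processed at once. The question addressed to these genes was how their transcripts differed between the early embryo and the differentiated embryo (14–17 h against 2–4 h), and between both ends of the late stage (17–17.5 h against 14–14.5 h).

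The respiratory chain sits in the inner mitochondrial membrane. Complex I takes electrons from NADH and complex II from succinate, ubiquinone carries them to complex III, cytochrome c carries them on to complex IV, which reduces oxygen, and ATP synthase uses the proton gradient that complexes I, III and IV build. Complexes I, III, IV and ATP synthase combine subunits of the mitochondrial genome with nuclear ones, whereas complex II is wholly nuclear-encoded. The fly egg is loaded with mitochondria and with maternal mRNA, and in flies many nuclear genes for mitochondrial proteins have a duplicate used mainly in the testis.

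The libraries held 14472809 (replicate 2 at 2–4 h) to 38904916 estimated counts, so that 3 counts correspond to between 0.207 and 0.0771 on the counts-per-million (CPM) scale. The deposited transcripts-per-million (TPM) values were computed over the whole span of a gene, introns included, for all 88 genes, 77 of which have introns. TPM is a share of the polyA RNA, and in whole embryos fewer cells of a type and less RNA per cell cannot be told apart. Markers of late differentiation (9 muscle, cuticle, trachea and neuron genes) summed to 20806–24164 TPM at 14–17 h and to 69.4–186 TPM at 2–4 h, and 6 maternal or early genes to 57.4–69.3 TPM at 14–17 h and to 540–646 TPM at 2–4 h. Per the study's methods, replicates came from separate collections of embryos made on separate days.

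Transcripts of the complexes made up a larger part of the RNA in every late window than at 2–4 h. Summed over the 63 subunits, the deposited TPM was 11483, 10662 and 11783 in the libraries of 2–4 h, 17729 and 19136 in those of 14–14.5 h, 20930, 21324, 21614 and 19683 in those of 14–17 h, and 21704 and 21067 in those of 17–17.5 h. No late library overlapped the early ones. The sum averaged 20888 ± 851 TPM at 14–17 h (SD, n = 4) and 11309 ± 580 TPM at 2–4 h (SD, n = 3), a ratio of 1.85. Complex II had the highest ratio of these windows (2.84), with 899 ± 19.8 TPM at 14–17 h and 316 ± 34.5 TPM at 2–4 h. Complex III followed with 2.12, ATP synthase with 2.01, complex I with 1.67 and complex IV with 1.60. Between the narrow windows the sums were closer, 21386 ± 451 TPM at 17–17.5 h and 18432 ± 995 TPM at 14–14.5 h (SD, n = 2 each), with ratios between 1.06 for complex I and 1.22 for complex IV. These sums are descriptions and were not tested.

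**Figure D1:**
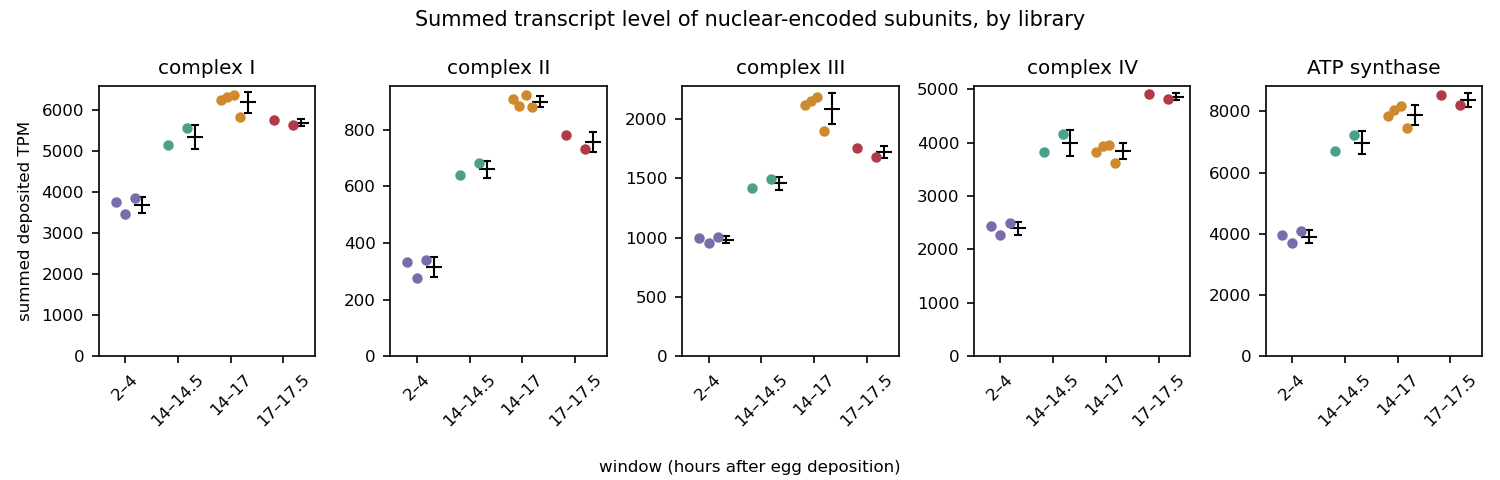
Summed deposited TPM of the nuclear-encoded subunits of each complex (vertical axis, from 0) in each library (points) by window in hours after egg deposition, with the mean and SD of each window as a black bar. In all 5 complexes the libraries at 14–17 h lie above those at 2–4 h, and complex IV is highest at 17–17.5 h, with 4904 and 4813 TPM.

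Nearly all subunits were higher at 14–17 h than at 2–4 h, although by unequal amounts. The quasi-likelihood test of edgeR, with p-values adjusted by Benjamini-Hochberg over 11623 genes, could be run on 62 of the 63 subunits, since ND-B8 failed the filter on low counts. At an adjusted p under 0.05, 55 of the 62 (88.7%) were higher, 1 was lower and 6 were not called, whereas 48.2% of all genes tested were higher and 42.4% were lower, 90.6% in either direction. The median log2 fold change was 0.80 over the subunits and 0.19 over all genes tested. The deposited TPM gave a similar picture, with every library at 14–17 h above every library at 2–4 h for 56 of the 62 subunits, against 48.2% of all genes tested. Without replicate 4 of 14–17 h, which differed from the other 3 libraries of that window, 55 subunits were higher and 1 was lower.

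**Figure D2:**
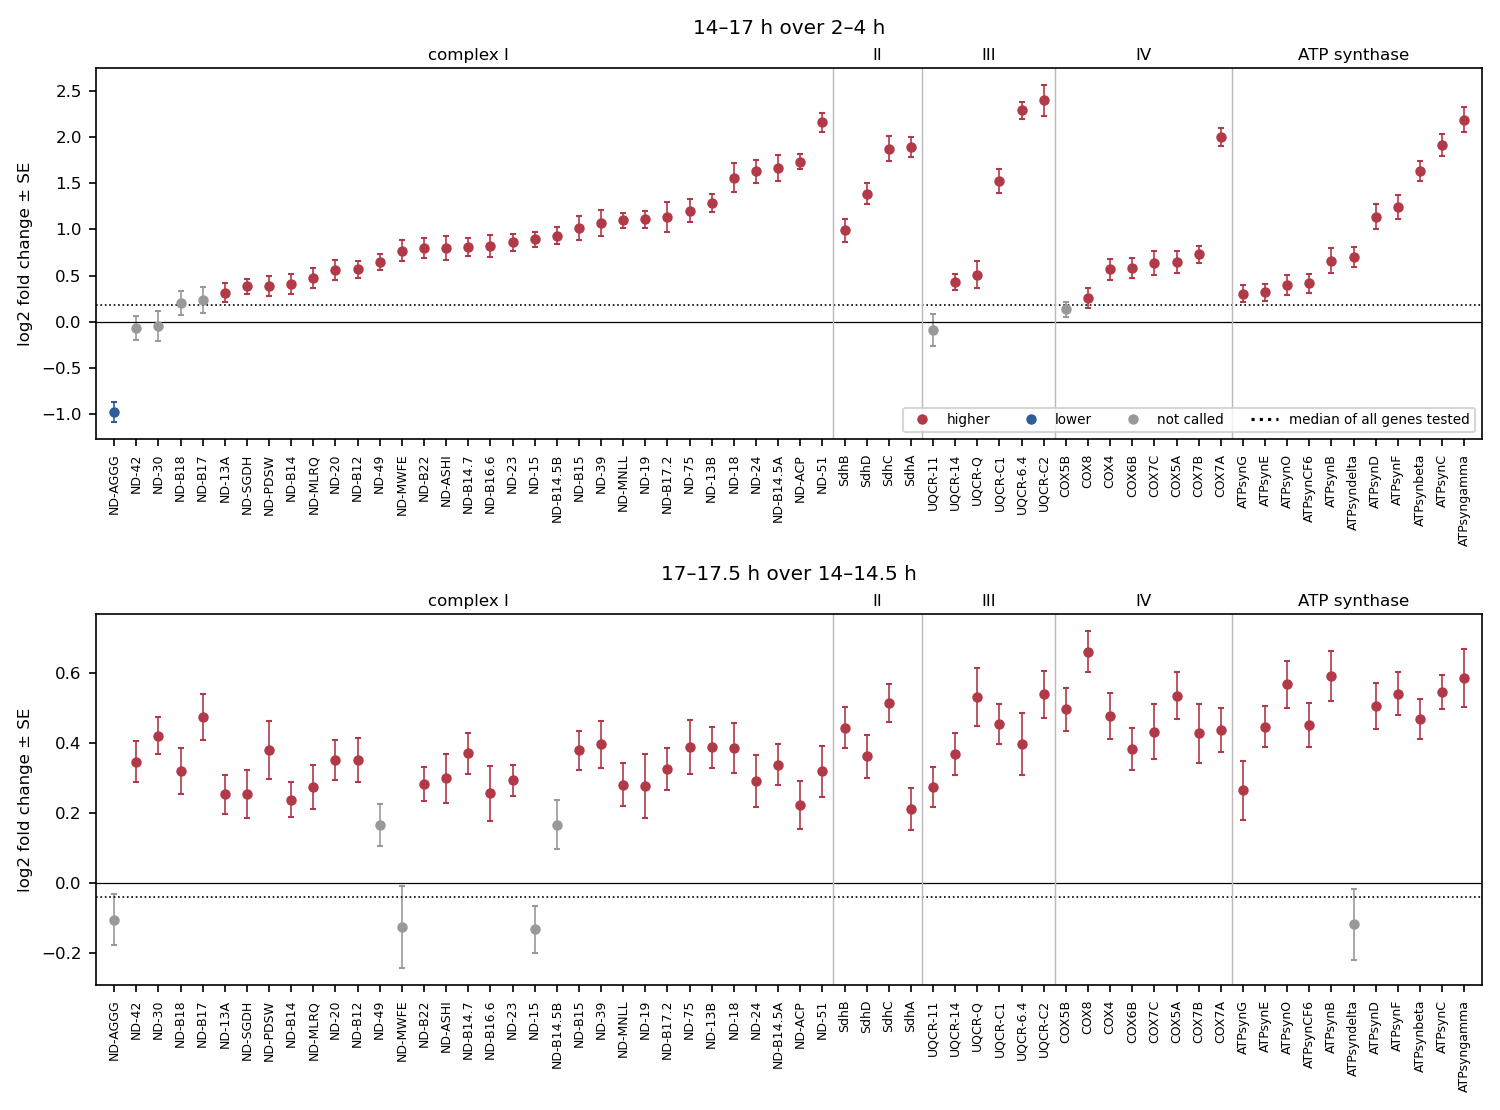
Log2 fold change with its SE (vertical axis) of each of the 62 subunits tested, grouped by complex and ordered by the change of 14–17 h over 2–4 h, for that comparison (upper panel) and for 17–17.5 h over 14–14.5 h (lower panel, same order). Red and blue points passed edgeR's test as higher or lower, grey points did not, and the dotted line is the median of all genes tested (0.19 above, -0.04 below).

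In complex I, 28 of 33 subunits tested were higher at 14–17 h than at 2–4 h and 1 was lower (median log2 fold change 0.81). Its 7 nuclear-encoded core subunits, which carry the flavin and iron-sulfur clusters from NADH to ubiquinone, had a median of 0.86 with 6 higher, and its 26 accessory subunits a median of 0.80 with 22 higher. ND-51, the NADH- and FMN-binding subunit (chromosome 2L, 6060842 to 6062757, dm6), measured 56.3, 55.4 and 63.8 TPM at 2–4 h, 194 and 219 TPM at 14–14.5 h, 271, 274, 269 and 238 TPM at 14–17 h, and 228 and 217 TPM at 17–17.5 h. Its late libraries were all more than 3 times its early ones, and its log2 fold change of 14–17 h over 2–4 h was 2.16 (SE 0.10, adjusted p = 1.5e-08, edgeR), the highest in complex I. ND-24, its iron-sulfur partner in the NADH-binding module, had a log2 fold change of 1.63 (SE 0.13).

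The other core subunits had smaller fold changes. ND-75, the large iron-sulfur subunit of the electron-input module, measured 218, 225, 225 and 181 TPM at 14–17 h, against 94.5, 80.5 and 99.2 TPM at 2–4 h (log2 fold change 1.20, SE 0.13). ND-49, which lines the ubiquinone site, measured 198, 206, 198 and 176 TPM at 14–17 h, against 119, 122 and 129 TPM at 2–4 h (0.65, SE 0.09). Both separated the windows without overlap. ND-20, the subunit with the last iron-sulfur cluster, measured 245, 254, 246 and 211 TPM at 14–17 h, against 166, 145 and 172 TPM at 2–4 h (0.56, SE 0.11). ND-23, which carries iron-sulfur clusters, had 227, 228, 228 and 202 TPM at 14–17 h, against 127, 118 and 119 TPM at 2–4 h (0.86, SE 0.09).

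ND-30, a core subunit of the ubiquinone-reducing module, behaved differently from these neighbours (chromosome 3L, 3158485 to 3159578). It measured 248, 192 and 253 TPM at 2–4 h, 96.5 and 99.8 TPM at 14–14.5 h, 241, 241, 250 and 174 TPM at 14–17 h, and 119 and 109 TPM at 17–17.5 h. Its 14–17 h libraries overlapped the early ones (log2 fold change -0.04, SE 0.16, adjusted p = 0.80, edgeR), while the 4 narrow-window libraries all lay below both. Leaving out replicate 4 of 14–17 h gave 0.05.

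Among the accessory subunits of complex I, ND-ACP, the mitochondrial acyl carrier protein, had the highest fold change (log2 1.73, SE 0.09). It measured 76.8, 76.9 and 75.3 TPM at 2–4 h, 331 and 364 TPM at 14–14.5 h, 252, 267, 264 and 238 TPM at 14–17 h, and 352 and 348 TPM at 17–17.5 h. Every late library was thus above every early one, with the narrow windows highest. ND-B14.5A (1.67) and ND-18 (1.56) followed it. ND-B15, the accessory subunit with the highest deposited TPM of complex I at 14–17 h, measured 312, 317, 327 and 356 TPM there, against 175, 139 and 169 TPM at 2–4 h (1.01, SE 0.13). That rank rests on TPM over the gene span. Over exonic length, ND-MLRQ (mean 927 TPM), whose counts were not whole in 11 libraries, was above ND-B15 (290 TPM) at 14–17 h.

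ND-AGGG was the 1 subunit of any complex that was lower at 14–17 h than at 2–4 h. This accessory subunit of complex I (chromosome 3L, 24976254 to 24977118) measured 167, 210 and 166 TPM at 2–4 h, 109 and 103 TPM at 14–14.5 h, 100.3, 93.3, 95.9 and 77.0 TPM at 14–17 h, and 83.8 and 86.8 TPM at 17–17.5 h. No late library reached the early ones, and the log2 fold change was -0.98 (SE 0.11, adjusted p = 1e-05, edgeR). It was lower in all fits that left out a library, between -1.09 and -0.92. Its counts were not whole in 10 libraries, so part of them was shared with other sequence. ND-42, ND-B17 and ND-B18, also accessory subunits, were not called, with log2 fold changes of -0.07 (SE 0.13), 0.24 (SE 0.14) and 0.20 (SE 0.13).

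All 4 subunits of complex II were higher at 14–17 h than at 2–4 h (median log2 fold change 1.63). SdhA, the flavoprotein that oxidises succinate, measured 39.0, 35.3 and 41.4 TPM at 2–4 h, 113 and 119 TPM at 14–14.5 h, 149, 153, 148 and 127 TPM at 14–17 h, and 120 and 112 TPM at 17–17.5 h, with no overlap between early and late libraries (log2 fold change 1.89, SE 0.11, adjusted p = 7.5e-08, edgeR). The membrane anchor SdhC measured 349, 334, 361 and 319 TPM at 14–17 h, against 100.2, 77.9 and 97.9 TPM at 2–4 h (1.87, SE 0.13). The other anchor, SdhD, measured 172, 170, 173 and 193 TPM at 14–17 h, against 67.3, 62.1 and 71.9 TPM at 2–4 h (1.39, SE 0.11). The iron-sulfur subunit SdhB had the lowest fold change of the complex (0.99, SE 0.13), with 239, 228, 239 and 243 TPM at 14–17 h and 125, 101 and 129 TPM at 2–4 h.

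In complex III, 5 of 6 subunits were higher at 14–17 h than at 2–4 h (median log2 fold change 1.02). UQCR-C2, a core protein of the matrix side (chromosome 3L, 16584124 to 16586111), had the highest fold change of all 62 subunits. It measured 75.0, 55.6 and 75.1 TPM at 2–4 h, 178 and 195 TPM at 14–14.5 h, 383, 388, 397 and 293 TPM at 14–17 h, and 241 and 229 TPM at 17–17.5 h, so that the wide window lay above both narrow ones and these above the early one. Its log2 fold change was 2.40 (SE 0.17, adjusted p = 3.1e-07, edgeR). The other core protein, UQCR-C1, measured 541, 540.1, 559 and 478 TPM at 14–17 h, against 190.1, 157 and 199.9 TPM at 2–4 h (1.53, SE 0.13).

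The small subunits of complex III ranged widely. UQCR-6.4 had a log2 fold change of 2.29 (SE 0.09, adjusted p = 5.2e-09, edgeR), whereas UQCR-14, with 647, 682, 684 and 564 TPM at 14–17 h and 466, 496 and 469.7 TPM at 2–4 h, had 0.43 (SE 0.09). In the narrow windows UQCR-14 lay below all libraries of 2–4 h, with 323 and 358 TPM at 14–14.5 h and 381 and 377 TPM at 17–17.5 h. UQCR-11, the hinge protein, was not called (-0.09, SE 0.17, adjusted p = 0.64, edgeR). It measured 37.6, 47.0 and 39.3 TPM at 2–4 h, 14.1 and 15.1 TPM at 14–14.5 h, 41.5, 47.3, 41.9 and 25.1 TPM at 14–17 h, and 15.5 and 15.04 TPM at 17–17.5 h. As for ND-30, the wide late window overlapped the early one and the narrow windows lay below both.

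In complex IV, 7 of 8 nuclear-encoded subunits were higher at 14–17 h than at 2–4 h, with the lowest median of the complexes (log2 fold change 0.61). COX7A (chromosome 3R, 8339944 to 8341043) stood out within it. It measured 133, 129 and 144 TPM at 2–4 h, 757 and 821 TPM at 14–14.5 h, 518, 540.4, 545 and 562 TPM at 14–17 h, and 938 and 908 TPM at 17–17.5 h. Its late libraries did not overlap its early ones (log2 fold change 2.00, SE 0.10, adjusted p = 2e-08, edgeR).

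COX4 measured 628, 660.3, 656 and 502 TPM at 14–17 h, against 409.99, 386 and 437 TPM at 2–4 h (log2 fold change 0.57, SE 0.12). COX5A, with 891, 893, 901 and 866 TPM at 14–17 h and 595, 485 and 609.9 TPM at 2–4 h, had 0.65 (SE 0.12). Both separated the windows. COX5B was not called (0.14, SE 0.08, adjusted p = 0.13, edgeR), although its TPM of 256, 274, 266 and 243 at 14–17 h lay above the 232, 236 and 239 at 2–4 h. COX8, at 498, 499, 508 and 404 TPM at 14–17 h and 396, 377 and 420.2 TPM at 2–4 h, passed narrowly (0.25, SE 0.11, adjusted p = 0.047, edgeR), and that call was lost in 6 of the 7 fits that left out a library, with adjusted p-values of 0.053 to 0.14. The library whose removal kept it was replicate 4 of 14–17 h.

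All 11 ATP synthase subunits were higher at 14–17 h than at 2–4 h (median log2 fold change 0.70). ATPsyngamma, ATPsynC and ATPsynbeta had the highest fold changes. ATPsyngamma, the central stalk that turns inside the head, measured 147, 122 and 157 TPM at 2–4 h, 306 and 357 TPM at 14–14.5 h, 663, 685, 679.8 and 585 TPM at 14–17 h, and 434 and 425 TPM at 17–17.5 h (log2 fold change 2.19, SE 0.13, adjusted p = 9.1e-08, edgeR). ATPsynC, which forms the proton-carrying ring, measured 306, 279 and 314 TPM at 2–4 h, 1145 and 1198 TPM at 14–14.5 h, 1114, 1099, 1176 and 1140.4 TPM at 14–17 h, and 1501 and 1452 TPM at 17–17.5 h (1.91, SE 0.12). In both genes the early libraries lay below all later ones.

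ATPsynbeta, the catalytic subunit, measured 1514, 1605, 1526 and 1283 TPM at 14–17 h, against 454, 493 and 485 TPM at 2–4 h (log2 fold change 1.63, SE 0.11). The 4 subunits of the peripheral stalk, which holds the head still, had log2 fold changes of 1.14 (ATPsynD), 0.66 (ATPsynB), 0.42 (ATPsynCF6) and 0.40 (ATPsynO), and ATPsyndelta of the central stalk had 0.70. ATPsynB measured 526, 575, 565 and 396 TPM at 14–17 h, against 322, 307 and 343 TPM at 2–4 h (0.66, SE 0.13). ATPsynO measured 572, 606, 630.4 and 516 TPM at 14–17 h, against 440.01, 412 and 462 TPM at 2–4 h (0.40, SE 0.11). The membrane subunit ATPsynG had the lowest fold change of the complex (0.30, SE 0.09), with 610.2, 667, 641 and 531 TPM at 14–17 h and 488, 492 and 504 TPM at 2–4 h, still without overlap.

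**Figure D3:**
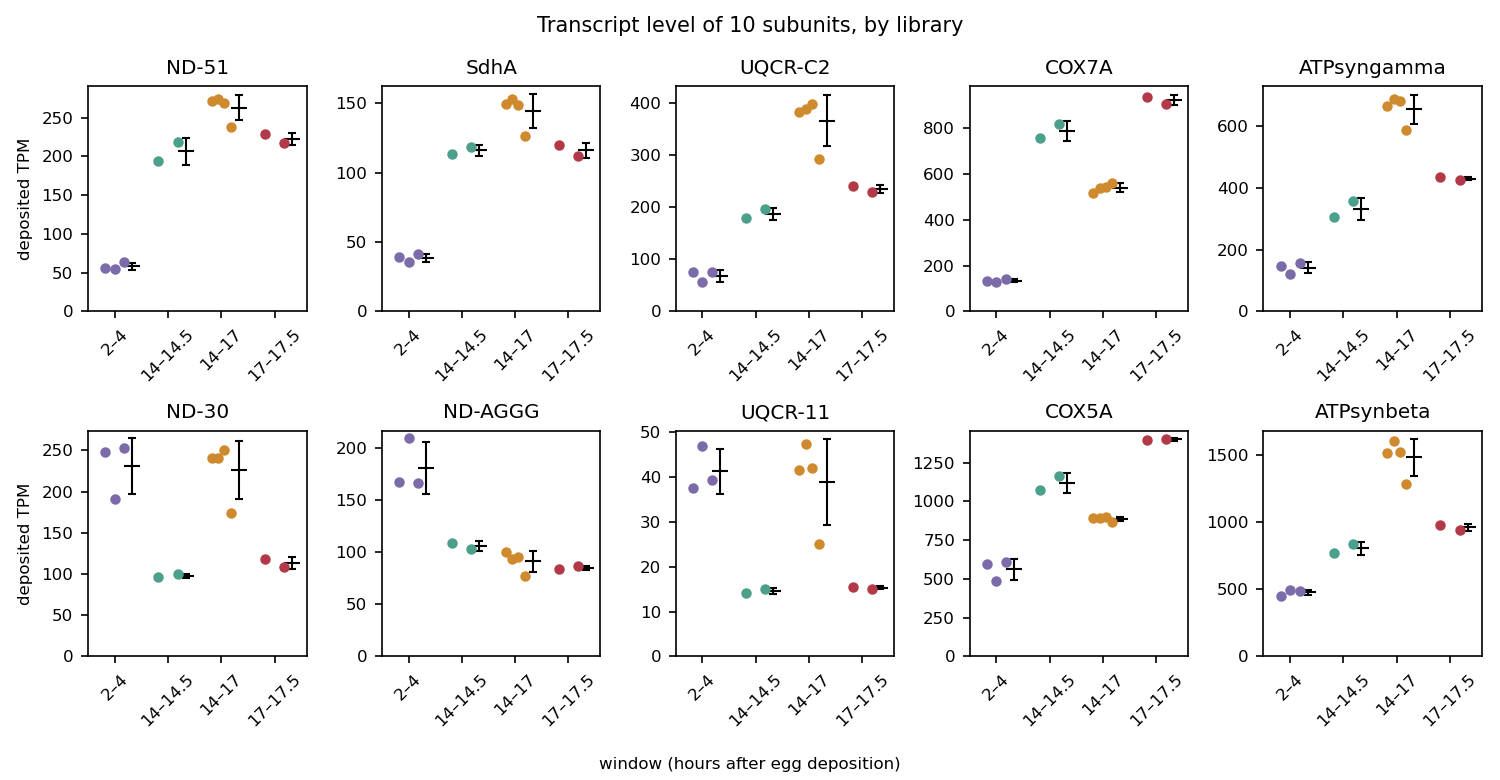
Deposited TPM (vertical axes, each from 0) of 10 subunits in each library (points) by window in hours after egg deposition, with the mean and SD of each window as a black bar. The upper row shows, for each complex, a subunit that was much higher at 14–17 h than at 2–4 h; the lower row shows ND-30 and UQCR-11, whose narrow-window libraries lie below both other windows, ND-AGGG, COX5A, which is highest at 17–17.5 h, and ATPsynbeta, which is highest at 14–17 h.

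Within the late stage most subunits were slightly higher at 17–17.5 h than at 14–14.5 h. The same test over 11267 genes called 56 of 62 subunits higher (90.3%) and 0 lower, with edgeR, whereas 32.0% of all genes tested were higher and 31.5% lower, 63.6% in either direction. The median log2 fold change was 0.38 over the subunits and -0.04 over all genes, and the values ran from -0.13 to 0.66. This count depended on the scaling. With library totals in place of TMM factors, which shifted the median of all genes by -0.14, edgeR called 36 subunits higher and 2 lower (ND-15 and ND-AGGG), against 26.4% and 39.1% of all genes. In deposited TPM, both libraries of 17–17.5 h lay above both of 14–14.5 h for 43 of the 62 subunits, against 30.4% of all genes, and below them for 4 (ND-15, ND-AGGG, ND-MWFE and ATPsyndelta).

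By complex, 28 of 33 subunits of complex I (median log2 fold change 0.30), all 4 of complex II (0.40), all 6 of complex III (0.43), all 8 of complex IV (0.46) and 10 of 11 of ATP synthase (0.51) were higher at 17–17.5 h than at 14–14.5 h. COX8 had the highest fold change of all (0.66, SE 0.06, adjusted p = 0.0002, edgeR), with 713 and 704 TPM at 17–17.5 h against 502 and 536 TPM at 14–14.5 h. In ATP synthase, ATPsynB measured 415 and 401 TPM at 17–17.5 h, against 297 and 331 TPM at 14–14.5 h (0.59, SE 0.07), and ATPsyngamma 434 and 425 TPM, against 306 and 357 TPM (0.59, SE 0.08). In complex III, UQCR-C2 was highest, with 241 and 229 TPM at 17–17.5 h against 178 and 195 TPM at 14–14.5 h (0.54, SE 0.07). In each of these 4 genes the libraries separated the windows.

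Complex II and complex I had smaller differences between the narrow windows. SdhC was the highest of complex II, with 232 and 218 TPM at 17–17.5 h against 175 and 189.9 TPM at 14–14.5 h (log2 fold change 0.51, SE 0.05), and SdhA the lowest (0.21, SE 0.06, adjusted p = 0.024, edgeR), with 120 and 112 TPM against 113 and 119 TPM, which overlap. The call of SdhA was lost without replicate 1 or without replicate 2 of 14–14.5 h (adjusted p = 0.11 and 0.067, edgeR). ND-B17 was the highest of complex I, with 51.5 and 47.1 TPM at 17–17.5 h against 39.1 and 42.9 TPM at 14–14.5 h (0.48, SE 0.07). The lowest called in complex I was ND-ACP (0.22, SE 0.07), whose libraries overlapped, in complex III UQCR-11 (0.28, SE 0.06), in complex IV COX6B (0.38, SE 0.06) and in ATP synthase ATPsynG (0.27, SE 0.08). The 6 subunits not called were ND-15, ND-B14.5B, ND-MWFE, ND-49, ND-AGGG and ATPsyndelta, with log2 fold changes from -0.13 to 0.17. Of the 56 calls, 10 were lost on leaving out 1 library: ATPsynG, ND-18, ND-19, ND-24, ND-51, ND-ACP, ND-B16.6, ND-MLRQ, ND-SGDH and SdhA.

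Of the 62 subunits, 50 were called higher in both comparisons, which share no library. Among all genes tested, 48.2% were higher in 14–17 h over 2–4 h and 32.0% in 17–17.5 h over 14–14.5 h. The share of all genes higher in both was not computed. Another 5 (ND-15, ND-B14.5B, ND-MWFE, ND-49 and ATPsyndelta) were called higher in 14–17 h over 2–4 h and not called between the narrow windows. A further 6 (ND-42, ND-30, ND-B17, ND-B18, UQCR-11 and COX5B) were not called in 14–17 h over 2–4 h and were higher at 17–17.5 h than at 14–14.5 h. The remaining subunit, ND-AGGG, was lower in the wide comparison and not called in the narrow one.

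The 14–17 h libraries did not lie between the narrow windows that bound them for most subunits. In deposited TPM, all 4 libraries of 14–17 h lay above all 4 narrow-window libraries for 29 of the 63 subunits, below them for 13, and overlapped them for 21. Of 7373 other genes with a mean over 10 TPM, 25.5% lay above and 10.9% below. The log2 ratio of the mean at 14–17 h to the mean of the narrow windows ran from -0.68 (ATPsynF) to 1.33 (UQCR-11), with COX7C at 1.26 and COX7A at -0.66 within the same complex. For that reason the 4 windows cannot be read as 1 time course, and each comparison was made within the wide or within the narrow windows.

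**Figure D4:**
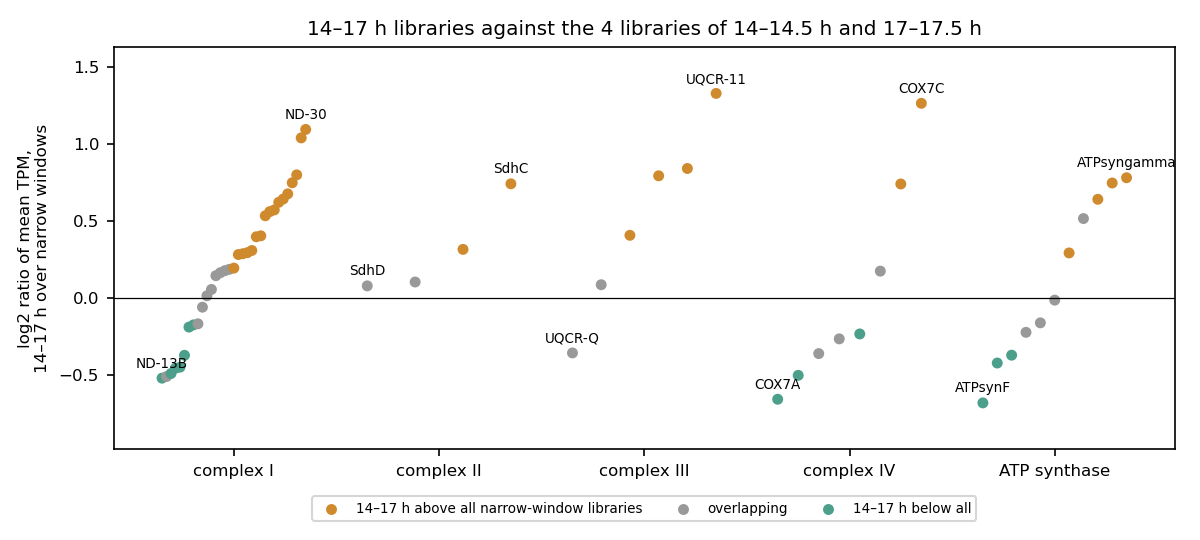
Log2 ratio of the mean deposited TPM at 14–17 h (4 libraries) to the mean of the 4 libraries of 14–14.5 h and 17–17.5 h (vertical axis) for each subunit except ND-B8, by complex, with the highest and lowest subunit of each complex named. Orange points have every 14–17 h library above every narrow-window library (29 subunits), green points have every one below (13) and grey points overlap.

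Replicate 4 of 14–17 h stood apart from replicates 1 to 3 and towards the narrow windows. For 42 of the 63 subunits its TPM lay outside the range of the other 3 on the side of the narrow windows, for 16 it lay outside otherwise, and for 5 it lay inside. For the 7373 other genes, replicate 4 lay outside on the side of the narrow windows for 37.5%, outside otherwise for 20.4% and inside for 42.1%. ND-B17.2, an accessory subunit of complex I, had 185, 183 and 189.9 TPM in replicates 1 to 3 and 275 TPM in replicate 4, beside 274 to 313 TPM in the narrow windows. The 4 narrow-window libraries lay above all 2–4 h libraries for 46 of the 63 subunits, below them for 7 and overlapped them for 10, while of the 7373 other genes 37.8% lay above and 49.9% below. The 7 subunits below were ND-42, ND-AGGG, ND-B17, ND-30, UQCR-11, UQCR-14 and COX7C. Of these, UQCR-14 and COX7C were called higher at 14–17 h than at 2–4 h, so their direction differed between the late windows. What sets the wide and the narrow libraries apart was not tested.

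Levels of different genes can be compared only per length of transcript, so TPM was also computed from the estimated counts over exonic length. On that scale the median subunit of complex IV and of ATP synthase was the most abundant at 14–17 h, with 574 and 557 TPM as the mean of the library medians and overlapping libraries, followed by complex III (287 TPM), complex II (189 TPM) and complex I (188 TPM). At 2–4 h the order was ATP synthase (399 TPM), complex IV (382 TPM), complex III (138 TPM), complex I (112 TPM) and complex II (66.8 TPM). Complex II thus ranked last at 2–4 h, with library medians of 59.8 to 70.8 TPM against 104 to 118 TPM in complex I, and at 14–17 h the 2 overlapped. The most abundant subunits at 14–17 h by exonic length were ATPsynC (1529 ± 55.4 TPM) and ATPsynbeta (1503 ± 132 TPM), which differed by less than their SD, then COX7B (1237 ± 52.2 TPM) and ND-MLRQ (927 ± 107 TPM; SD, n = 4 each). At 2–4 h the same genes had 419 ± 21.5, 502 ± 25.1, 771 ± 12.9 and 691 ± 55.6 TPM (SD, n = 3 each), and COX7B was the most abundant subunit. ND-MLRQ has 538 bp of exons in a span of 6611 bp, and its counts were not whole in 11 libraries. The counts covered introns too, so this scale can overstate such a gene. Its deposited TPM averaged 71.5 at 14–17 h.

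Several subunits share sequence with other annotated genes, which limits their values. Counts were whole numbers in all libraries for 46 of the 63 subunits, within 0.01, and not whole in at least 1 library for 17. Over the 45 tested subunits with whole counts in all libraries, 40 were higher and 0 lower at 14–17 h than at 2–4 h, and 43 were higher and 0 lower at 17–17.5 h than at 14–14.5 h, with edgeR. ND-AGGG, the subunit that was lower at 14–17 h, is among the 17 and so is not in these counts. Whole counts do not exclude shared reads, since COX6B is among the 45 although 81.9% of its span overlaps CG18809. ND-MNLL and CG45089 have the same span (chromosome X, 7893053 to 7893798) and equal counts in all 11 libraries, so the level given for ND-MNLL is an even split of the pair. ATPsyndelta contains CG2962 in its span, which had 0 estimated counts at 2–4 h, 256506 and 217559 counts at 14–14.5 h, 92694, 52896, 58863 and 57490.4 counts at 14–17 h, and 0 counts at 17–17.5 h, and its part in both comparisons of ATPsyndelta was not tested. ND-B8 was at 0 to 0.78 TPM in all 11 libraries, unlike every other subunit of complex I, and the reason was not tested.

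Sdhaf3, which helps complex II take up its iron-sulfur clusters, changed in the opposite direction to the 4 subunits of the complex. It measured 54.0, 55.0 and 58.1 TPM at 2–4 h, 33.6 and 44.6 TPM at 14–14.5 h, 17.6, 19.3, 20.8 and 22.2 TPM at 14–17 h, and 16.4 and 14.66 TPM at 17–17.5 h. It was lower at 14–17 h than at 2–4 h (log2 fold change -1.48, SE 0.14, adjusted p = 3.6e-06, edgeR) and lower at 17–17.5 h than at 14–14.5 h (-1.12, SE 0.18, adjusted p = 0.0028, edgeR), without overlap in either comparison.

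Most of the 24 duplicates were under or near the floor of detection, and the highest count of any of them was 53 (SdhBL, in 1 library of 2–4 h). Together they held 0.0141% to 0.077% of the members' counts in any library. Of them, 10 had 0 counts in all 11 libraries, within 0.01, and 4 more had fewer than 3 counts in each, while 10 reached 3 counts in at least 1 library. A count of 0 allows up to 3 counts, or 0.0771 to 0.207 CPM, for counting error only. Of the 10 duplicates at 0, 8 lie inside the span of another gene, where counting on gene spans could assign their reads to that gene: ND-49L, ND-51L1, ND-51L2, UQCR-11L, UQCR-6.4L, COX5BL, COX6AL and ATPsynCF6L. SdhCL and UQCR-14L do not.

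Duplicates with 10 or more counts in at least 2 libraries were SdhBL, COX4L, COX7AL, COX7AL2, ATPsynbetaL and ATPsynepsilonL. The filter on low counts left 5 of the 24 duplicates to test in 14–17 h over 2–4 h. There 4 were lower and 1 higher, beside 42.4% and 48.2% of all genes tested. Duplicates so near the filter can pass it mainly through the window where they are high. COX7AL, ATPsynbetaL and COX4L did so at 2–4 h, and ATPsynepsilonL at 14–17 h. Such calls follow in part from the filter, and their p-values are given as description only. SdhBL had 51, 18 and 53 counts at 2–4 h, 20 and 14 counts at 14–14.5 h, 16, 11, 9 and 12 counts at 14–17 h, and 13 and 19 counts at 17–17.5 h. Its share of the counts of SdhB and SdhBL together was 0.264% at 14–17 h and 2.16% at 2–4 h. Its CPM was higher in each early library than in all 4 of 14–17 h (log2 fold change -2.07, SE 0.26, adjusted p = 2.7e-05, edgeR), whereas its partner SdhB was higher at 14–17 h.

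ATPsynbetaL had 2, 3, 7 and 2 counts at 14–17 h, against 23, 17 and 26 at 2–4 h (log2 fold change -2.98, SE 0.44, adjusted p = 0.0001, edgeR). COX4L had 14, 13, 8 and 6 counts at 14–17 h, against 28, 13 and 21 at 2–4 h (-1.36, SE 0.33, adjusted p = 0.003, edgeR). COX7AL had 1, 0, 0 and 0 counts at 14–17 h, against 20, 7 and 14 at 2–4 h (adjusted p = 1.7e-05, edgeR), and 1, 0, 0 and 2 in the narrow windows. All 3 therefore had their highest CPM in the earliest window, as SdhBL did.

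ATPsynepsilonL was the duplicate called higher late, a call that follows in part from the filter. It had 11, 3 and 8 counts at 2–4 h, 11 and 18 counts at 14–14.5 h, 30, 18, 18 and 29 counts at 14–17 h, and 20 and 13 counts at 17–17.5 h (log2 fold change of 14–17 h over 2–4 h 1.33, SE 0.33, adjusted p = 0.003, edgeR). COX7AL2 had up to 16 counts in a late library and at most 2 in an early one, and failed the filter on low counts. Between the narrow windows 2 duplicates were tested, SdhBL and ATPsynepsilonL, and neither was called. Of 15 marker genes of testis and sperm, 4 (dj, djl, fzo and sa) were at 0 in all 11 libraries, and the list summed to 4.48–5.83 TPM at 14–17 h and 17.6–19.5 TPM at 2–4 h; whether this bears on the early counts of the duplicates was not tested.

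**Figure D5:**
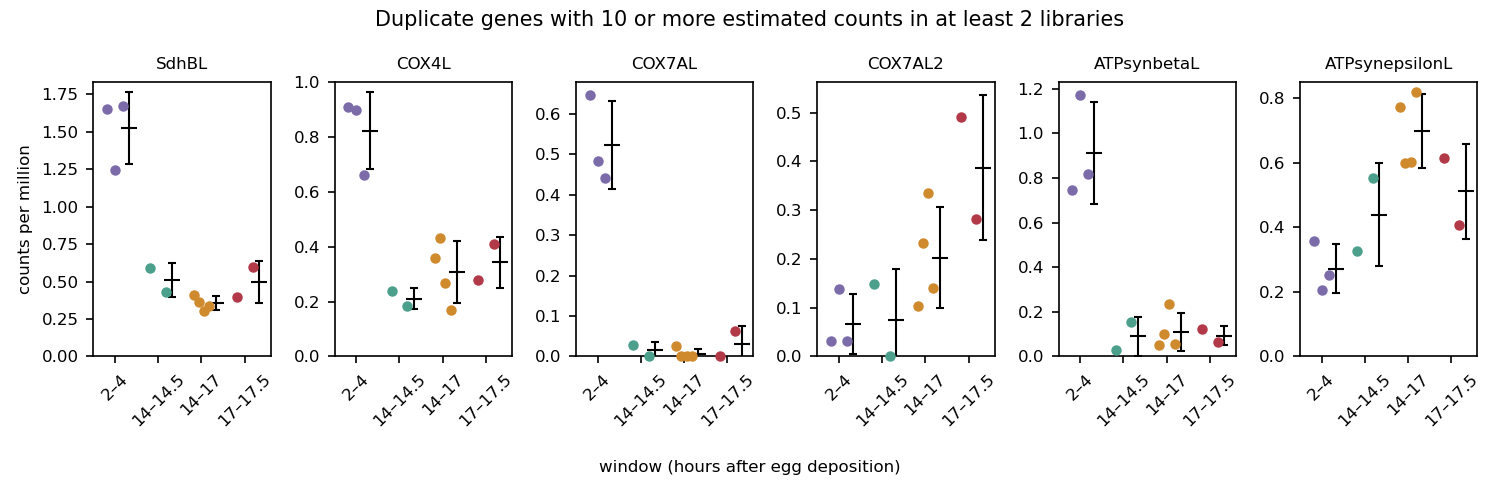
CPM (vertical axes, each from 0 and on its own scale) of the 6 duplicates with at least 10 estimated counts in 2 or more libraries, in each library (points) by window in hours after egg deposition, with the mean and SD of each window as a black bar. SdhBL, COX4L, COX7AL and ATPsynbetaL are highest at 2–4 h, whereas ATPsynepsilonL is highest at 14–17 h and COX7AL2 at 17–17.5 h; an SD bar that would pass below 0 is cut at 0.

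Respiratory genes whose symbols fall outside the rule gave counts close to those of the subunits. Of 11 such genes, 10 were higher and 1 was lower at 14–17 h than at 2–4 h (median log2 fold change 0.81), and 9 were higher and 2 lower at 17–17.5 h than at 14–14.5 h (0.42). Over all genes tested the shares higher and lower were 48.2% and 42.4% in the wide comparison, and 32.0% and 31.5% in the narrow one. blw, the alpha subunit of the ATP synthase head, measured 1230.5, 1258, 1295 and 1002 TPM at 14–17 h, against 260, 216 and 276 TPM at 2–4 h (log2 fold change 2.24, SE 0.15), beside 2.19 (SE 0.13) for ATPsyngamma and 1.63 (SE 0.11) for ATPsynbeta. Cyt-c-p, the somatic cytochrome c, measured 1303 and 1329 TPM at 17–17.5 h, against 539 and 562 TPM at 14–14.5 h (1.47, SE 0.06, adjusted p = 7.9e-06, edgeR), above the range of the 62 subunits in that comparison. Cyt-c1L, a duplicate of cytochrome c1, was the gene that was lower in the wide comparison (-1.25, SE 0.27), and it was lower in the narrow one too. Cyt-c-d, a cytochrome c of the male germline, had 43.4, 32.8, 51.8 and 60.9 estimated counts at 14–17 h, against 2.16, 0 and 1.04 at 2–4 h (higher, adjusted p = 6e-06, edgeR), and 17.1 and 14.9 counts at 17–17.5 h, against 47.8 and 55.2 at 14–14.5 h (lower, adjusted p = 0.0056, edgeR).

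Of 12 assembly factors, Sdhaf3 included, 7 were higher and 2 lower at 14–17 h than at 2–4 h (median log2 fold change 0.55). This stood beside 48.2% of all genes higher and 42.4% lower. At 17–17.5 h, 2 were higher and 4 lower than at 14–14.5 h (-0.04), beside 32.0% and 31.5% of all genes. Cox17, which carries copper to complex IV, measured 74.2, 77.3, 86.1 and 103 TPM at 14–17 h, against 7.28, 6.59 and 9.12 TPM at 2–4 h (log2 fold change 3.43, SE 0.20). Of 12 regulators and genes for the upkeep and expression of mitochondrial DNA, 4 were higher and 7 lower in the wide comparison (median -0.29). The shares over all genes tested were 48.2% higher and 42.4% lower. TFAM, which packages mitochondrial DNA (-1.47, SE 0.10), mtTFB2, a transcription factor of mitochondria (-2.14, SE 0.12), and PolG1, the catalytic subunit of the mitochondrial DNA polymerase (-2.18, SE 0.11), were lower at 14–17 h than at 2–4 h. ERR, a nuclear receptor that controls energy metabolism genes in the fly and whose counts were in part shared with another gene (1.29, SE 0.09), and PolrMT, the mitochondrial RNA polymerase (1.19, SE 0.13), were higher.

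The citric acid cycle, which feeds NADH to complex I and succinate to complex II, changed mostly in the direction of the subunits. Of 11 of its genes tested, 8 were higher and 1 (ScsbetaG) was lower at 14–17 h than at 2–4 h, and 9 were higher and 0 lower at 17–17.5 h than at 14–14.5 h, with edgeR. Over all genes tested, 48.2% were higher and 42.4% lower in the first comparison, and 32.0% and 31.5% in the second. Mdh2, the mitochondrial malate dehydrogenase, measured 303, 304, 329 and 324 TPM at 14–17 h, against 9.03, 5.05 and 9.82 TPM at 2–4 h (log2 fold change 5.25, SE 0.23), more than any subunit of the chain. sesB, the main carrier that exchanges ADP and ATP across the inner membrane, whose counts were not whole in 8 libraries, was not called in the wide comparison (0.07, SE 0.12, adjusted p = 0.60, edgeR). It measured 1379 and 1380 TPM at 17–17.5 h, against 485 and 508 TPM at 14–14.5 h (1.69, SE 0.05).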

How the data were processed

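Polyadenylated mRNA of whole embryos was sequenced in 4 windows (11 libraries). The authors deposited a table per library with Kallisto's estimated counts and TPM per gene; the submitters' processing notes name dm6 and CASAVA 1.8.2. Both deposited values used the whole span of a gene, introns included, so that overlapping genes share reads. Exons came from the Ensembl BDGP6 annotation (17625 of 17753 genes matched). The members and lists were chosen with earlier results of these data known. The estimated counts, after rounding to integers, were the input of edgeR 4.0.16 in R 4.3.3 (filterByExpr, TMM factors, quasi-likelihood F test, two-sided, Benjamini-Hochberg adjustment over all genes tested, threshold 0.05), for 14–17 h over 2–4 h (4 against 3 libraries) and 17–17.5 h over 14–14.5 h (2 against 2). Each SE is the size of the log2 fold change over the root of its F statistic. Depth was 14472809 to 38904916 estimated counts per library, with a floor of 3 counts. The fits were also run on simulated counts with a common spread for all genes and few changed genes. In the real data most genes tested were called, so the simulation did not test the scaling. Named genes were a fixed set of core or catalytic subunits, the highest and lowest called in each complex and comparison, the highest TPM of each complex at 14–17 h, and duplicates with 10 or more counts in at least 2 libraries; others, those of the lists included, were named after their values were seen. Alternatives were DESeq2 1.42.0, RLE factors or library totals, no filter, all libraries in 1 fit, a replicate block, removal of mitochondrial-genome genes, TPM by exonic length, CPM and leaving out each library. Promoter sequences and listed genes absent from the tables were not analysed here.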

Additional observations from a re-analysis of the deposited data

Results flagged for a closer look

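Among 43 values examined in the 4 libraries of 14–17 h, 8 had 1 library far from the other 3 by Dixon's test at the 95% level, where chance gives about 1 in 20. All 8 are values of single genes. Replicate 4 was that library for 7 of them. It was below the other libraries for ND-75 (180.8 TPM, others 217.6 to 224.9), ND-51 (238.4 TPM, others 269.2 to 273.6), ND-30 (173.97 TPM, others 241.1 to 250.1), ND-23 (202.4 TPM, others 226.7 to 228.1), UQCR-C2 (292.9 TPM, others 382.96 to 397.4) and COX8 (403.5 TPM, others 497.6 to 507.7). It was above them for SdhD (192.8 TPM, others 169.5 to 172.9). For COX7AL, replicate 1 had 0.1405 TPM, which is 1 count, and the other libraries had 0. Any value beside 0 in all the others is flagged, so the chance rate does not apply to this gene. These genes share the library, so they are not independent of each other. What sets replicate 4 apart was not tested.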

How the results depend on the processing

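For 14–17 h over 2–4 h, the counts and median over the subunits kept their direction, and the counts stayed within 1.5 times, under all alternatives run. Leaving out 1 library gave 54 to 55 higher, 1 lower and medians of 0.69 to 0.84. For 17–17.5 h over 14–14.5 h, leaving out 1 library gave 47 to 57 higher, 0 lower and medians of 0.31 to 0.43, all libraries in 1 fit gave 38 higher, and library totals without TMM factors gave 36 higher, 2 lower and a median of 0.23. RLE factors shifted the median of all genes in the wide comparison by 0.10. The replicate numbers did not pair the samples (correlations of the deviations of same-numbered libraries of -0.02 to 0.05 in the wide and -0.05 in the narrow comparison); a replicate block gave 56 higher and 1 lower in the wide comparison (median 0.83), and 55 higher and 0 lower in the narrow one (0.38). The summed TPM ratio moved for complex III to 1.90 with exonic length (wide) and 1.25 with CPM (narrow), for ATP synthase to 2.44 and for all complexes to 2.02 with CPM (wide). Log2 fold changes near 0 changed sign for ND-30 in the wide comparison (0.0614 with DESeq2, 0.0614 with RLE, 0.0762 with the block, and -0.20 to 0.0518 without 1 library), ND-42 (0.0331 with DESeq2, 0.0343 with RLE, 0.0219 with the block, -0.19 to 0.0086 without 1 library), UQCR-11 (0.0679 with the block, -0.21 to 0.0625 without 1 library), and for SdhBL in the narrow one (-0.0418 with library totals, -0.23 to 0.43 without 1 library); none of these was called. On leaving out 1 library, 1 of 56 wide calls (COX8) and 10 of 56 narrow calls were lost; of the genes named by rule, COX8 (wide) and ND-51, ND-30, ND-23, ND-42, ND-ACP, SdhA, ATPsynG and UQCR-11 (narrow) lost their call under some alternative. The cause was not tested.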
